A study of Mus musculus with 10 samples.

Results

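The genes described here carry the signal of interleukin-4 (IL-4) from the cell surface to the nucleus and limit it again. They are the receptor chains Il4ra, Il2rg, Il13ra1 and Il13ra2, the kinases Jak1, Jak2 and Tyk2, the transcription factor Stat6, and the feedback inhibitors Socs1 and Cish. The genes were chosen by symbol, with earlier results of these data known, and all 10 are among the 18385 genes listed in at least 1 mRNA-seq library. Each passed the filter on low counts that left 14010 genes for testing, Il13ra2 only through its IL-4 libraries.

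The libraries come from adipocyte precursors (APs), the cells of fat tissue that can become adipocytes, isolated from the subcutaneous white fat of C57BL/6J mice. Cells bearing CD45 or CD31 were removed with magnetic beads and cells bearing SCA-1 were kept, and the APs were then cultured. Control APs (libraries 1 to 3) grew without added cytokine, and IL-4-treated APs (libraries 4 to 6) received IL-4 from the day after seeding, with harvest of both groups on day 4. The dose of IL-4 is not given in the sources used here, nor is it stated which animals or cultures lie behind each library. The p-values therefore set the difference between the groups against the spread between these libraries, and that spread may be technical.

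IL-4 binds the IL-4 receptor alpha chain (Il4ra), which then pairs either with the common gamma chain (Il2rg), mainly in blood cells, or with the IL-13 receptor alpha-1 chain (Il13ra1), mainly in other cells. The paired chains bring JAK family kinases together, these phosphorylate the receptor and STAT6, and STAT6 dimers enter the nucleus and bind DNA. SOCS1 and CISH are inhibitors that cytokines induce through STAT proteins, and IL-13 receptor alpha-2 (Il13ra2) binds IL-13 tightly with a short tail that lacks the binding sites for JAK kinases, for which it is known as a decoy.

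Totals of expected counts ran from 28526832 to 28674637 in control libraries and from 28914068 to 29057808 in IL-4 libraries. The 10 most abundant genes took 9.14% to 9.59% of a control library and 13.8% to 15.5% of an IL-4 library, and scaling by the trimmed mean of M-values (TMM) allowed for this. Without it, with library totals only, the median log2 fold change of all genes tested was -0.17 in place of 0.00. Control library 3 and IL-4 library 6 stood apart from their groups: the chi-square per degree of freedom over genes was 10.7 and 16.8 for control library 3 against the others and 3.77 between control libraries 1 and 2, and it was 45.8 and 36.7 for IL-4 library 6 against 2.49 between IL-4 libraries 4 and 5. Each of the 10 genes was therefore also fitted without these 2 libraries, and the values are given where the call differs. The AP label was checked against 10 AP markers, 9 of which exceeded 1 FPKM in some library. Pi16 did so only with IL-4, at 0.76 to 0.80 FPKM in controls, and Dpp4 stayed at 0.40 FPKM or less. FPKM is the deposited level, scaled for transcript length and for the fragments in the library. The 10 markers summed to 6099 to 6426 FPKM in controls and 9138 to 9836 FPKM with IL-4, led by Col3a1. Without Col3a1 the sums were 3898 to 4235 FPKM and 4320 to 4658 FPKM. Most of that was Col1a1, at 3167 to 3473 FPKM in controls and 3430 to 3860 FPKM with IL-4. At an adjusted p under 0.05 in edgeR's quasi-likelihood test, 6 AP markers were higher with IL-4 and 2 lower (Pdgfrb and Dlk1). The other 2 did not pass. Among all genes tested, 19.0% were higher and 18.4% lower. The 12 macrophage markers also summed to 3125 to 4052 FPKM in controls and 1137 to 1537 FPKM with IL-4, led by Lyz2, so the cultures held macrophage transcripts despite the selection against CD45. The 8 lymphocyte markers stayed at 1.25 FPKM or less in sum, the 7 mast cell and eosinophil markers at 0.78 FPKM or less, and the 4 mature adipocyte markers at 0.41 FPKM or less, while the 6 endothelial markers summed to 12.7 to 16.2 FPKM.

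The IL-4-treated AP cultures held far more Il13ra2, Cish and Socs1 mRNA than the control cultures, by 523-fold, 12.7-fold and 9.15-fold. They also held 1.5-fold more Jak2. Which cells of the cultures, APs or macrophages, carried these transcripts was not tested and is not shown by bulk libraries. Stat6 itself and the other kinases did not pass the test, and the shared signalling chains Il4ra and Il13ra1 passed it only by a rise of 1.14-fold and 1.13-fold that depends on the scaling. By the quasi-likelihood test of edgeR, with p-values adjusted by Benjamini-Hochberg across the tested genes, 6 of the 10 genes passed a threshold of 0.05 as higher and 0 as lower, where 19.0% of all genes tested were higher and 18.4% were lower. At a log2 fold change beyond 1, 3 of the 10 genes were higher and 0 lower, against 5.77% and 5.26% of all genes tested. The genes were chosen with earlier results known, and Il13ra2 passed the filter only through its IL-4 libraries. Counts over the 10 genes are therefore a description and no support. The count of 0 for lower is not firm, since Il2rg had an unadjusted p of 0.0298 and was called lower under 5 of the 13 alternatives.

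**Figure D1:**
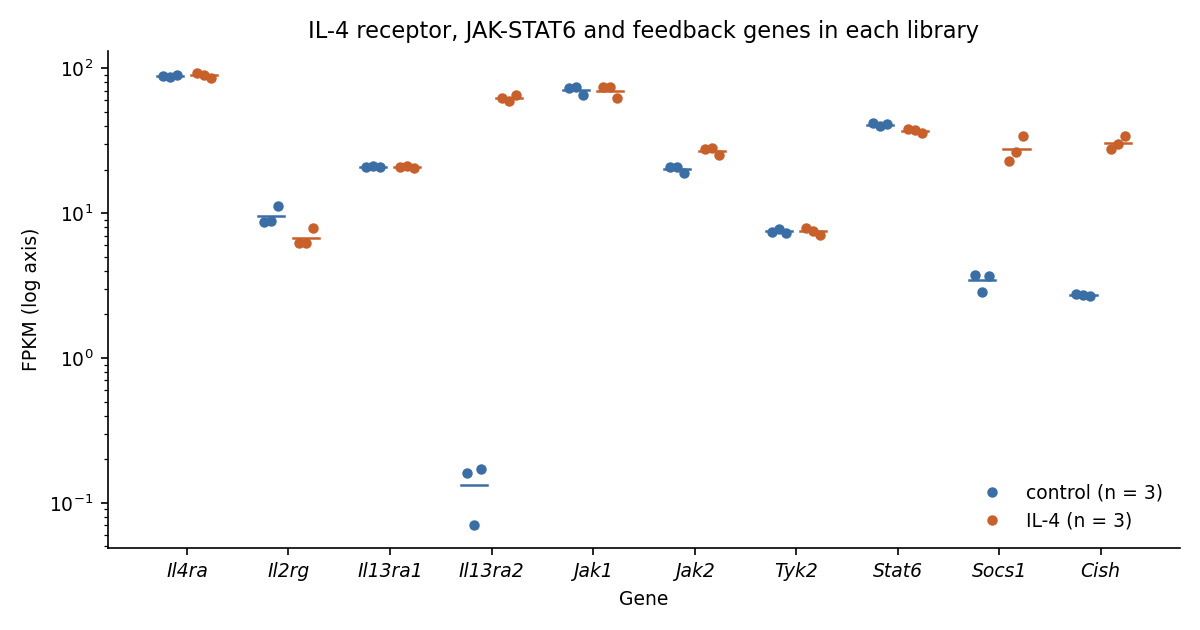
Level of each of the 10 genes in FPKM on a log axis, with 1 point per library (3 control libraries, 3 IL-4 libraries) and a bar at the group mean. Il13ra2, Socs1, Cish and Jak2 are higher in every IL-4 library than in every control library, and Il2rg and Stat6 are lower. Il4ra, Il13ra1, Jak1 and Tyk2 overlap between the groups. In normalized counts Stat6 overlaps as well.

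Among the receptor chains, Il4ra (chromosome 7, 125552271 to 125579474, plus strand, in GRCm38.p6, the patch release of mm10) was the most abundant of the 10 genes in both groups. Its level was 88.4, 87.5 and 89.5 FPKM in the control libraries and 92.4, 90.3 and 86.0 FPKM in the IL-4 libraries. The groups overlapped, since IL-4 library 6 lay below all controls. After TMM scaling the fitted log2 fold change was 0.19 (SE 0.06, 95% interval 0.05 to 0.33, adjusted p = 0.0378 in edgeR's quasi-likelihood test), and with library totals it was 0.02 (adjusted p = 0.819). Without IL-4 library 6 it was 0.24 (adjusted p = 0.00269), whereas the call was lost when any of the other 5 libraries was left out.

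Il13ra1 (chromosome X, 36112108 to 36171262, plus strand), the partner chain of the receptor on non-blood cells, lay at 20.9, 21.1 and 20.7 FPKM in controls and 20.8, 21.3 and 20.7 FPKM with IL-4. The FPKM values of the groups could not be separated. Its fitted log2 fold change was 0.17 with TMM (SE 0.05, 95% interval 0.05 to 0.30, adjusted p = 0.0378) and 0.00 with library totals (adjusted p = 0.987). Like that of Il4ra, the call held without IL-4 library 6 (0.20) and was lost without any other single library.

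Il2rg (chromosome X, 101264385 to 101268255, minus strand), the gamma chain shared by the receptors of several lymphocyte cytokines, was at 8.76, 8.89 and 11.15 FPKM in controls and 6.19, 6.21 and 7.86 FPKM with IL-4. All IL-4 libraries lay below all controls, and the highest value of each group came from the library that stood apart. The fitted log2 fold change was -0.34 (SE 0.13, 95% interval -0.63 to -0.04, adjusted p = 0.0727), which did not pass the test. It passed with library totals (-0.51, adjusted p = 0.0165), without IL-4 library 6 (-0.44, adjusted p = 0.00872) and without both libraries that stood apart (-0.33, adjusted p = 0.00528). Of the 12 macrophage markers, 10 fell with IL-4, 1 (Cd163) rose and Cd68 did not pass. Among all genes tested, 18.4% fell and 19.0% rose. The marker sum without Lyz2 moved from 646 to 827 FPKM in controls to 464 to 600 FPKM with IL-4. The part of macrophage transcripts in the Il2rg values was not tested, and fewer cells of a type and less RNA per cell cannot be told apart in these bulk libraries.

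Il13ra2 (chromosome X, 147383478 to 147429192, minus strand) changed the most of the 10 genes. The control libraries held 10, 4 and 11 reads of it (0.16, 0.07 and 0.17 FPKM), and the IL-4 libraries held 3952, 3776 and 4212 reads (62.5, 59.3 and 66.0 FPKM). It was barely detected in each control library and lay within a narrow band in the IL-4 libraries. The fitted log2 fold change was 9.03 (SE 0.16, 95% interval 8.66 to 9.40), a 523-fold rise (interval 405 to 676) with an adjusted p of 5.03e-08, and it was the 13th largest rise by fold and the 4th smallest p of the 14010 genes tested. It moved from percentile 23.2 to percentile 94.0 of the mean FPKM of all 18385 listed genes, including those not tested. Because the control level rests on few reads, the size of the fold depends on how low values are handled, and limma on log2(FPKM + 1) gave 5.81.

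RefSeq lists 2 transcripts for Il13ra2 that differ by exon 13 of 14, a coding exon of 116 bases (chrX:147384444-147384559, minus strand, GRCm38.p6). With the exon the transcript has 2279 bases and encodes 383 residues, and without it the transcript has 2163 bases, shifts its reading frame and encodes 339 residues. The mouse gene is known to give a soluble receptor from a transcript that skips an exon near its end, in addition to the receptor in the membrane. The deposited gene length, an average of the transcripts weighted by their estimated abundance, places the longer transcript at 80.3%, 85.9% and 83.9% of Il13ra2 mRNA in IL-4 libraries 4, 5 and 6. In all IL-4 libraries the longer form was thus the larger share and the shorter form was present as a minority. The controls, with 4 to 11 reads, give no usable share. These shares are estimates from reads that mostly fit both transcripts, and no read counts per transcript were used here.

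Set against each other, the receptor chains shifted in their proportions. The FPKM ratio of Il13ra2 to Il13ra1, with 0.01 added to both, was 0.00813, 0.00378 and 0.0087 in control libraries and 3.00, 2.79 and 3.19 in IL-4 libraries. The Il13ra2 mRNA was thus far below the Il13ra1 mRNA in every control library and above it in every IL-4 library, a difference of 8.86 in mean log2 ratio. The ratio of Il13ra1 to Il2rg was 2.39, 2.38 and 1.85 in controls and 3.36, 3.42 and 2.63 with IL-4. Il13ra1 was thus the more abundant partner chain in all 6 libraries, and the mean log2 ratio differed by 0.51 (1.42-fold). Mean Il13ra1 was 20.91 FPKM in controls and 20.92 FPKM with IL-4. The difference in this ratio thus follows Il2rg, whose change did not pass edgeR's test with TMM scaling. Which cells carried either chain was not tested. Both ratios gave a two-sided exact permutation p of 0.1, the smallest that 3 against 3 libraries allow. These ratios do not depend on the scaling between libraries.

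**Figure D2:**
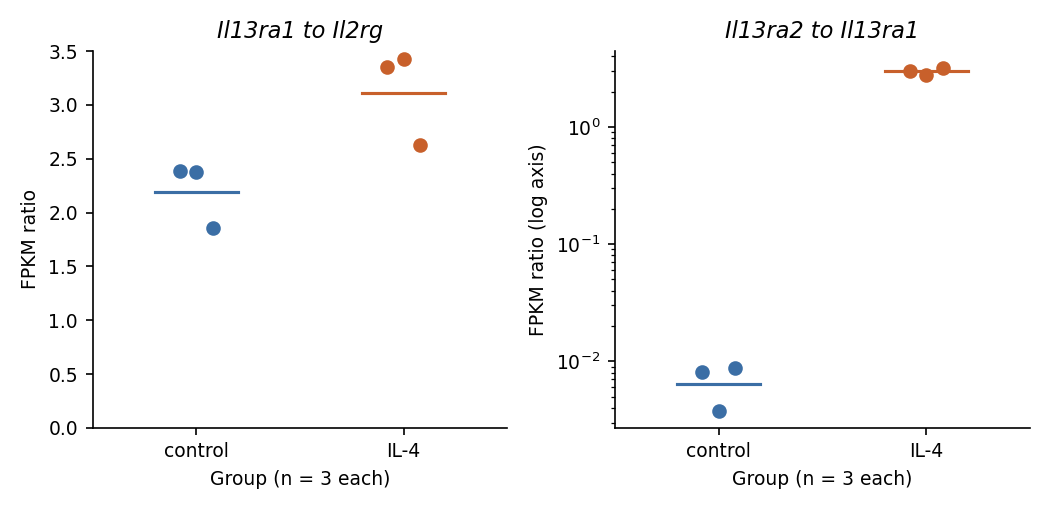
FPKM ratios between receptor chains in each library (points) with the geometric mean of each group (bars), Il13ra1 to Il2rg on a linear axis and Il13ra2 to Il13ra1 on a log axis. The groups do not overlap in either panel, and the Il13ra2 to Il13ra1 ratio crosses 1 between them.

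The kinases differed among themselves. Jak1 (chromosome 4, 101151974 to 101265282, minus strand), which binds the IL-4 receptor alpha chain, was at 73.35, 74.9 and 65.75 FPKM in controls and 73.9, 74.1 and 62.9 FPKM with IL-4. The groups overlapped, and the lowest value of each came from the library that stood apart. Its log2 fold change of 0.15 (SE 0.09, 95% interval -0.07 to 0.37, adjusted p = 0.249) did not pass the test, nor did the value of -0.02 with library totals. Reads shared with other loci make its expected counts fractional, the only such case among the 10 genes.

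Jak2 (chromosome 19, 29251803 to 29313095, plus strand), a kinase associated with the IL-13 receptor alpha-1 chain and with many hormone and growth factor receptors, was at 20.97, 20.95 and 18.95 FPKM in controls and 27.6, 28.0 and 25.3 FPKM with IL-4. Every IL-4 library exceeded every control library. Jak2 rose by a log2 fold change of 0.58 (SE 0.08, 95% interval 0.41 to 0.76, adjusted p = 5.83e-04), and by 0.41 with library totals. Tyk2 (chromosome 9, 21104068 to 21131393, minus strand), the other kinase of that chain, was at 7.36, 7.79 and 7.35 FPKM in controls and 7.89, 7.59 and 7.09 FPKM with IL-4. Its groups overlapped, and its log2 fold change of 0.18 (SE 0.07, adjusted p = 0.0944) did not pass the test. Jak1 and Tyk2 were called higher at 0.24 each without IL-4 library 6 (adjusted p = 0.0128 and 0.0109), and at 0.18 and 0.21 without both libraries that stood apart.

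Stat6 (chromosome 10, 127642955 to 127660987, plus strand), the transcription factor that IL-4 activates, was at 41.8, 39.7 and 41.3 FPKM in controls and 37.9, 37.7 and 35.6 FPKM with IL-4. In FPKM all IL-4 libraries lay below all controls, while the normalized counts overlapped. Its log2 fold change was 0.03 (SE 0.06, 95% interval -0.11 to 0.17, adjusted p = 0.717) with TMM and -0.14 (adjusted p = 0.0660) with library totals, so its direction turned with the scaling. No alternative gave a call for Stat6.

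Cish and Socs1, the inhibitors, rose together. Cish (chromosome 9, 107296659 to 107302784, plus strand) encodes a protein that blocks STAT docking on cytokine receptors and is best known as a target of STAT5. Of the 10 genes it is the only one whose RefSeq promoter sequence, 250 bases before to 50 bases after the annotated start, holds the STAT motif TTCNNNGAA, which reads the same on both strands. It holds the motif at bases 1 to 9 and at bases 12 to 20 of the annotated transcript. The window that holds both copies is shown because these are the only matches among the members, with the motif in capitals (chr9:107296654-107296683, plus strand, GRCm38.p6).
Cish: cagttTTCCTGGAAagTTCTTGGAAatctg
Of 27025 promoter sequences of this length, 8.47% hold the motif and 0.463% hold it at least 2 times. The same arms, TTC and GAA, with 4 bases between them, a spacing that STAT6 is known to bind, is in none of the 10 promoter sequences and in 6.99% of all. A match is a description of these windows and not of binding, and the windows leave out more distant sites. For Jak1, Tyk2 and Stat6 the annotated start used for the window lies inside the gene span given here, not at its outer end.

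Control libraries held 229, 227 and 226 reads of Cish (2.75, 2.73 and 2.68 FPKM) and IL-4 libraries held 2371, 2553 and 2889 reads (27.9, 30.01 and 33.9 FPKM). The controls were nearly equal, and each IL-4 library was far above them. The log2 fold change was 3.67 (SE 0.08, 95% interval 3.48 to 3.86), or 12.7-fold (interval 11.1 to 14.5), with an adjusted p of 8.34e-08, the 16th smallest p of all genes tested. Socs1 (chromosome 16, 10783808 to 10785536, minus strand) encodes an inhibitor that binds JAK kinases directly. Its reads numbered 126, 95 and 124 in controls (3.74, 2.87 and 3.71 FPKM) and 785, 899 and 1162 with IL-4 (23.0, 26.4 and 34.0 FPKM). The IL-4 libraries were spread more widely for Socs1 than for Cish, with IL-4 library 6 the highest for both. Socs1 rose by a log2 fold change of 3.19 (SE 0.17, 95% interval 2.81 to 3.58), or 9.15-fold (interval 7.03 to 11.9), with an adjusted p of 3.42e-06. Without IL-4 library 6 the values were 3.05 for Socs1 and 3.61 for Cish.

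**Figure D3:**
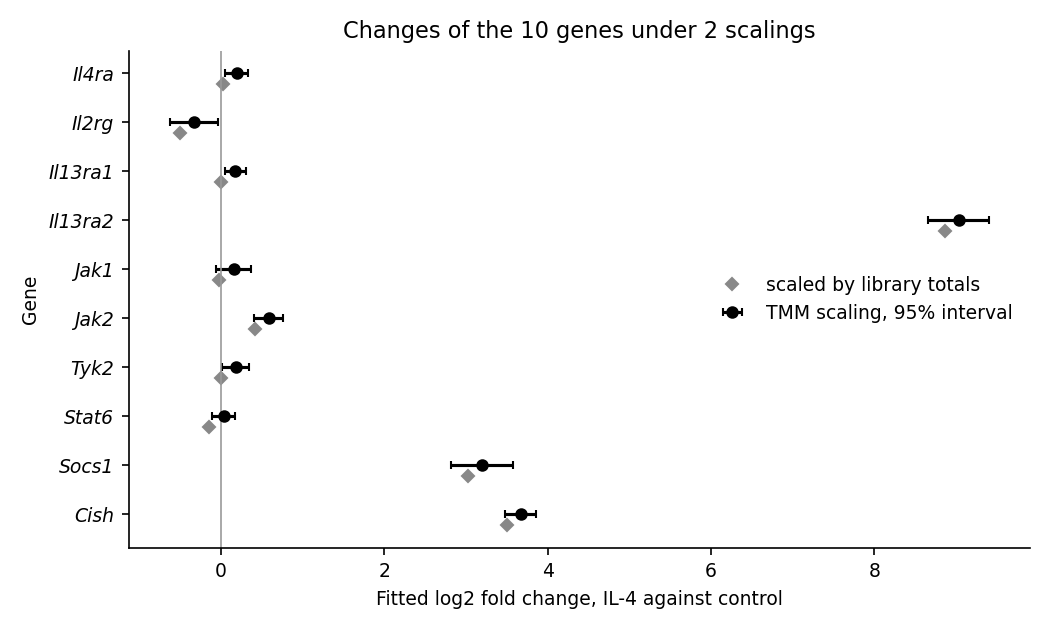
Fitted log2 fold change of the 10 genes, IL-4 against control (3 libraries each), with TMM scaling and its 95% interval (circles) and with library totals only (diamonds). Il13ra2, Cish, Socs1 and Jak2 stay clear of 0 under both scalings, and the values of Il4ra, Il13ra1, Jak1 and Tyk2 move to about 0 with library totals.

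In the order of FPKM levels, the control cultures ran from Il4ra through Jak1, Stat6, Il13ra1, Jak2, Il2rg, Tyk2, Socs1 and Cish to Il13ra2. Only Il13ra1 and Jak2 overlapped as neighbours in that order. With IL-4 the order was Il4ra, Jak1, Il13ra2, Stat6, Cish, Socs1, Jak2, Il13ra1, Tyk2 and Il2rg. There Jak1 and Il13ra2 overlapped as neighbours, as did Cish with Socs1, Socs1 with Jak2, and Tyk2 with Il2rg. The 3 lowest genes of the control cultures thus held ranks 3, 5 and 6 with IL-4. In normalized counts the groups did not overlap for Il4ra, Il13ra1, Il13ra2, Jak2, Socs1 and Cish (higher) and for Il2rg (lower). Among all genes tested, 25.2% did not overlap upward and 25.3% downward.

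The genes whose log2 CPM (counts scaled to a common library size) ran most alike with Il13ra2 over the 6 libraries, among 12815 genes with a mean of at least 1 CPM, were Vstm4 (Pearson r = 0.99980), Ifi204 (0.99956) and Os9 (0.99955). Vstm4 lay at 5.20 to 6.25 FPKM in controls and 21.2 to 22.8 FPKM with IL-4. Those most like Cish were Ear2 (0.99995), Klf4 (0.99975) and Map3k7cl (0.99974). Ear2 was listed at 0 in the controls and at 10.65, 11.5 and 14.6 FPKM with IL-4, and its family has near-identical copies, so its reads are uncertain. With 2 groups of 3 libraries, such values mostly reflect the difference between the groups and are given as a description.

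Other genes of the pathway were described from 8 lists with 105 genes, 89 of which were tested. In all, 34 were higher, 16 were lower and 39 did not pass, with a median log2 fold change of 0.11 against 0.00 for all genes tested. Of all genes tested, 19.0% were higher and 18.4% lower, so the count of lower genes is near that background. The count of higher genes includes 15 known STAT6 target genes, from a list put together with results of these libraries known. That count and the median are therefore a description and no support for a rise of the pathway. With library totals 33 were higher and 33 lower. Of the ligands and other cytokines that signal through the gamma chain, Il4, Il2, Il9 and Il21 had no read in any library, and Il13 had 1 read in 1 control library. The cultures thus held no detectable Il4 mRNA of their own at this depth. Il15, a cytokine made by many tissues, was at 1.54 to 2.11 FPKM in controls and 2.99 to 4.77 FPKM with IL-4 and rose by 1.17 (log2, SE 0.20, adjusted p = 0.00230), the only one of the 2 tested genes of its list that passed.

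Of the 6 receptor chains that pair with the gamma chain, 3 were tested. Il7r, the receptor of IL-7, rose by 1.36 (log2, SE 0.11), from 1.73 to 2.22 FPKM in controls to 4.07 to 4.60 FPKM with IL-4. Il21r, the receptor of IL-21, had a log2 fold change of -1.30 (SE 0.12), at 6.06 to 8.17 FPKM and 2.38 to 2.84 FPKM. Of 31 other receptor chains that signal through JAK kinases, 26 were tested, 12 rose and 4 fell. Among all genes tested, 19.0% rose and 18.4% fell. Csf2rb and Csf2rb2, beta chains that serve the IL-3 receptor, had log2 fold changes of 1.95 (SE 0.08) and 2.49 (SE 0.08). They are near-identical copies with fractional counts, so how their reads are divided is uncertain. Il27ra, a chain of the IL-27 receptor, rose by 2.09 (log2, SE 0.18), and Il10ra, the ligand-binding chain of the IL-10 receptor, had a log2 fold change of -1.18 (SE 0.10).

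None of the 7 other JAK and STAT genes rose and 3 fell, and the count of those that fell was 6 with library totals. These are few genes to set beside all genes tested, of which 19.0% rose and 18.4% fell. Jak3, the kinase that binds the gamma chain, was at 5.82 to 6.82 FPKM in controls and 2.99 to 3.30 FPKM with IL-4 (log2 fold change -0.82, SE 0.08, adjusted p = 1.26e-04), from counts that are in part fractional. Stat4, the factor of IL-12 signalling, was at 0.59 to 0.82 FPKM and 0.01 to 0.07 FPKM (log2 fold change -3.99, SE 0.36). Among the genes of the list that did not pass with TMM, the log2 fold changes were 0.11 for Stat2, -0.17 for Stat3, -0.18 for Stat5a and -0.07 for Stat5b, and the last 3 were called lower with library totals, while Stat2 was called higher without IL-4 library 6 (0.20).

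None of the other SOCS genes rose as Socs1 and Cish did. Of the 16 other SOCS, phosphatase and PIAS genes, 1 rose and 6 fell, where 19.0% and 18.4% of all genes did, and with library totals 10 were lower. Socs3, the inhibitor best known from IL-6 signalling, was at 23.2 to 25.4 FPKM in controls and 15.7 to 17.8 FPKM with IL-4 (log2 fold change -0.39, SE 0.06, adjusted p = 0.00203), and Socs2 had a log2 fold change of -0.19 (SE 0.08, adjusted p = 0.105) that passed with library totals and without IL-4 library 6. Ptpn2, a phosphatase of JAK and STAT proteins, rose by 0.48 (log2, SE 0.07). Ptpn6 (SHP-1), Inpp5d (SHIP1) and Ptprc (CD45), phosphatases found mainly in blood cells, had log2 fold changes of -1.60 (SE 0.12), -1.32 (SE 0.08) and -0.99 (SE 0.07). These fell along with the macrophage markers given with Il2rg, as did Jak3, Il21r and Il10ra, and the part of those markers in the changes was not tested.

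In the arm of IL-4 signalling that runs through insulin receptor substrates and PI3-kinase, 3 of 14 genes rose and 2 fell, shares near those of all genes tested (19.0% and 18.4%). With library totals 2 were higher and 8 lower, and without IL-4 library 6 the counts were 6 and 3. Irs1, the docking protein of insulin and IL-4 receptors, rose by 0.94 (log2, SE 0.09), from 6.04 to 6.77 FPKM in controls to 9.79 to 11.8 FPKM with IL-4, and the adaptor Gab1 rose by 0.50 (log2, SE 0.08). The PI3-kinase catalytic subunits Pik3cd and Pik3cb had log2 fold changes of -0.96 (SE 0.09) and -0.89 (SE 0.11), the latter from partly fractional counts. Of 6 cofactors of STAT6, only Ncoa1, a coactivator, passed, with a rise of 0.67 (log2, SE 0.11), although 3 were called lower with library totals.

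Of the 18 known STAT6 target genes, fitted with no filter on low counts, 15 were called higher and 0 lower, with a median log2 fold change of 3.04 over all 18. The remaining genes, Ccl17, Ccl22 and Alox15, did not pass the filter, and none of them exceeded 0.52 FPKM in any library. Some of the 15 passed it only through their IL-4 libraries, such as Pdcd1lg2, a ligand of PD-1 with no read in the controls, and Ccl24 (eotaxin-2) with 2, 0 and 2 control reads, both named after their values were seen, so a count over the tested genes of this list is no support. This list was put together with results of these libraries known, so its direction is not independent evidence. Mgl2, a lectin of macrophages and dendritic cells, was at 0.24 to 0.49 FPKM in controls and 219 to 295 FPKM with IL-4, with fractional counts, so its reads are shared with other genes in part. Ccl11 (eotaxin-1), an eosinophil chemokine, was at 5.62 to 9.16 FPKM and 773 to 980 FPKM (log2 fold change 7.13, SE 0.20). Cdh1, the cell adhesion protein E-cadherin, rose by 4.42 (log2, SE 0.11), and the transcription factor Klf4 by 2.36 (log2, SE 0.06), from 15.8 to 16.45 FPKM in controls to 70.8 to 79.8 FPKM.

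**Figure D4:**
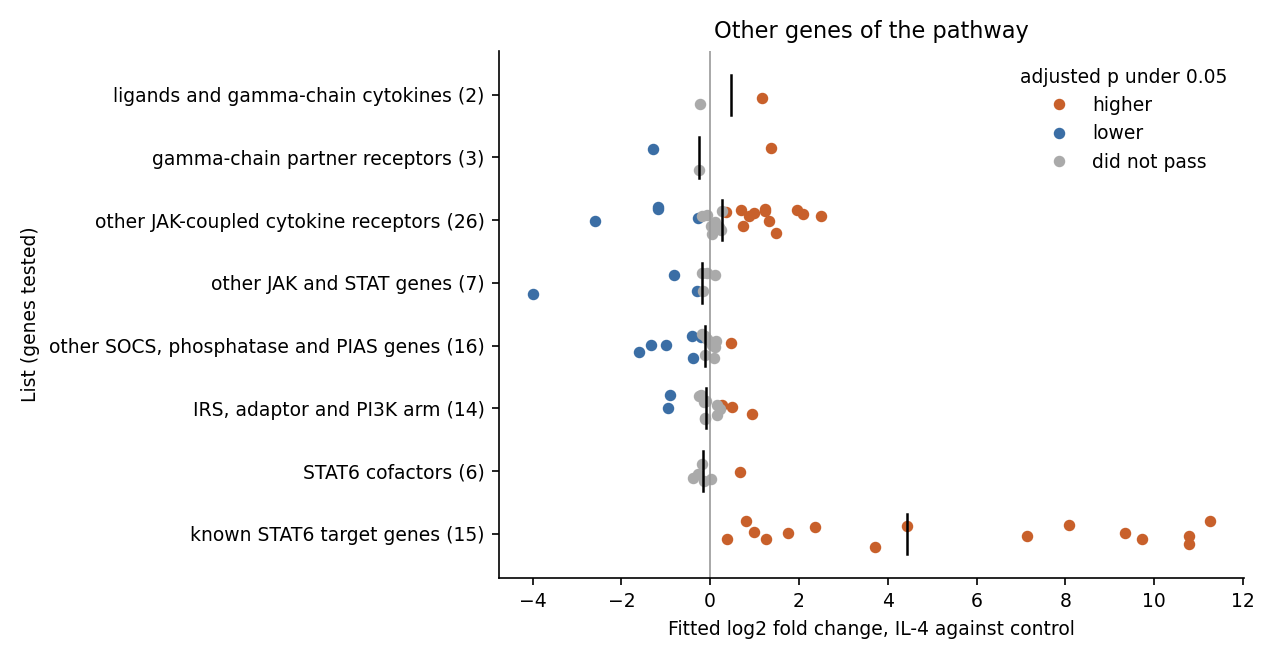
Fitted log2 fold change (IL-4 against control, TMM scaling) of the tested genes of the 8 pathway lists, 1 point per gene, coloured by call at an adjusted p under 0.05, with a black bar at each list's median. The 15 tested STAT6 target genes lie above 0, some of them tested only because of their IL-4 level, and the medians of the other lists lie between -0.24 and 0.47.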

How the data were processed

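The mRNA-seq libraries of 3 control and 3 IL-4-treated AP samples were analysed, and the small RNA libraries were not used here. For each library the authors filtered reads with SOAPnuke and deposited expected counts per gene, which are not normalized, and FPKM values, in which the authors divided by transcript length and sequencing depth. The submitters' processing notes name HISAT, StringTie, Bowtie2, RSEM and mm10, without versions. A gene with no row in a library was taken as 0. Of the expected counts above 0, 87% are whole, and counts were rounded before testing.

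Genes were kept by filterByExpr (at least 10 counts in enough libraries and 15 in total), and counts were scaled with TMM and compared with edgeR 4.0.16 (quasi-likelihood test, Benjamini-Hochberg adjustment over 14010 genes, adjusted p threshold 0.05) in R 4.3.3. The step was tested on simulated data. No file holds reads, so counting error in a gene with few reads limits single libraries. Alternatives were DESeq2 1.42.0, upper-quartile scaling, library totals, no filter, limma 3.58.1 on log2 FPKM values with 1 or 0.1 added, each library left out in turn, and, chosen after seeing the data, both libraries that stood apart left out. Normalized counts are counts divided by the TMM-scaled library size. Ratios were compared with an exact permutation test.

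The members and lists were chosen with earlier results of these data known. Named from each list were up to 4 genes of smallest p past the threshold, plus Jak3, other STAT genes, Il4, Il13, Socs2 and Socs3, and 1 gene that the rule names is not reported here. Likeness was taken for the 2 members with the largest change. Promoter sequences and gene positions are from RefSeq (GRCm38.p6), in which all 10 members were matched.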

Additional observations from a re-analysis of the deposited data

How the results depend on the processing

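Il13ra2, Socs1, Cish and Jak2 were called higher under all 13 alternatives. The calls of Il4ra and Il13ra1 held under 5 and 3 of them. The direction turned for Jak1 with library totals (-0.0206), limma on log2(FPKM + 1) (-0.0228) and log2(FPKM + 0.1) (-0.0231), and for Stat6 likewise (-0.14, -0.14 and -0.14), values in which the fall of the median of all genes (-0.17, -0.13 and -0.17) is not scaled away. With these settings 1704, 1697 and 1694 of all genes were higher (25.6%, 25.7% and 25.7% of those called, against 50.8%), and 4962, 4916 and 4904 were lower. Beyond a log2 fold change of 1, limma on log2(FPKM + 1) called 348 higher and 352 lower against 809 and 737, since the added 1 shrinks the changes of low genes. The members called lower rose from 0 to 1 with library totals, with both limma fits and without both libraries that stood apart, and the pathway genes called lower from 16 to 33, 31 and 31. Leaving out 1 library at a time gave 4 to 8 members higher and 0 to 1 lower, the upper values without IL-4 library 6. With 0.1 FPKM added, the log2 ratio of Il13ra2 to Il13ra1 differed by 8.10 in place of 8.86. Among the lists, the lower genes went from 2 to 8 in the insulin receptor substrate and PI3-kinase arm, from 6 to 10 among SOCS, phosphatase and PIAS genes and from 3 to 6 among other JAK and STAT genes with library totals. No paired analysis was possible because the control libraries are numbered 1 to 3 and the IL-4 libraries 4 to 6, with no number in common. Depth limits the control level of Il13ra2, at 4 to 11 reads per library, and with it the size of its fold change.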
